A study of Homo sapiens with 6 samples.

Results

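The SLC25 mitochondrial carriers were followed in PC3 cells after silencing of Mic60. The family was taken as every protein-coding gene with a symbol starting with SLC25A, together with UCP2, UCP3, MTCH1 and MTCH2, which belong to the same family by sequence and carry other names. This gave 51 members among the 57736 rows of the count table, of which 43 had enough counts to be tested. SLC25A53 was not analysed here.

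SLC25 proteins sit mostly in the inner mitochondrial membrane, which is closed to most metabolites, and exchange nucleotides, phosphate, carboxylates, amino acids, cofactors and iron between the matrix and the cytosol. They are encoded in the nucleus, made in the cytosol and inserted by the TIM22 translocase, and a few members act in the outer membrane or in peroxisomes. Mic60, the product of IMMT, is a core subunit of the MICOS complex, which holds the junctions between the cristae and the rest of the inner membrane, where many carriers reside.

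PC3 is an established human prostate cancer cell line. The groups were siMic60, PC3 cells given an siRNA against Mic60 (n = 3), and siCTRL, PC3 cells given a control siRNA (n = 3), sequenced from QuantSeq 3′ mRNA libraries. Another label field calls the same groups Mic60 knockout and wild type, and the time after transfection is not given in the sources used here. The study's general statistics statement describes its replicates as biological and independent, without naming these libraries, and the labels do not say whether they come from separate cultures. If they do not, the p-values rest on technical spread.

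Total counts were 6644495 to 8779877 in siMic60 and 7714837 to 8396244 in siCTRL libraries, so that 3 counts over a group correspond to 0.126 CPM in siMic60 and 0.125 CPM in siCTRL. Levels are counts scaled to library size (CPM) after TMM normalization. A 3′ library gives about 1 tag per transcript, so CPM is compared between genes without a length correction. IMMT had 38, 60 and 74 counts in siMic60 libraries, against 742, 729 and 733 counts in siCTRL libraries, leaving 8.12% of the siCTRL level (log2 fold change −3.62, SE 0.15, edgeR adjusted p = 4.29e-10). KRT8 averaged 183 ± 20.3 CPM in siMic60 and 119 ± 11.6 CPM in siCTRL (SD, n = 3 each), and KLK3 had no count. Of 20 T cell, NK cell and macrophage markers, 11 had no count, and their summed level was 3.11 to 6.36 CPM in siMic60 and 6.29 to 9.83 CPM in siCTRL. Of 8 fibroblast and endothelial markers in the table, DCN, VWF and CDH5 had no count, and their sum was 48.1 to 70.7 CPM in siMic60 and 280 to 379 CPM in siCTRL, most of it COL1A1. Their part in the results was not tested.

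Silencing of Mic60 was accompanied by changes in both directions across the carriers. The largest rise was that of SLC25A28, one of the iron importers, and the largest fall was that of UCP2. Of the 43 members tested, 9 rose and 9 fell at an edgeR adjusted p under 0.05, and 25 did not pass the test. Each direction held 20.9% of the members tested, close to the 17.7% of all 14653 genes that rose and the 17.9% that fell, so the number of calls does not set the family apart from other genes. With library totals in place of TMM the split was 7 higher and 12 lower. Leaving out 1 library at a time gave 5 to 7 members higher and 6 to 10 lower, the lowest count of higher members, 5, coming without siCTRL replicate 1.

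The groups did not overlap for 27 of the 43 members (62.8%), 12 with every siMic60 library above every siCTRL library and 15 with every siMic60 library below, against 47.9% of all genes tested. The median log2 fold change was −0.10 over the members and 0.0022 over all genes, and the median absolute log2 fold change was 0.38 and 0.37. Among the 18 called members, 2 rose and 2 fell by at least 2-fold, the median change being 1.73-fold among the higher and 0.602-fold among the lower. Higher members had a median siCTRL level of 34.5 CPM and lower members 68.9 CPM. The siCTRL level is also the base of each fold change, so these medians do not show that direction went with abundance. All members together summed to 3159 ± 113 CPM in siMic60 and 3573 ± 158 CPM in siCTRL (SD, n = 3 each). Most of that sum came from the 6 most abundant members, SLC25A39, SLC25A6, SLC25A3, MTCH1, SLC25A5 and MTCH2. They held 62.6% ± 1.70 of it in siMic60 and 69.2% ± 0.890 in siCTRL, so the sum does not describe the typical member. In bulk RNA, fewer cells of a kind and less RNA per cell cannot be told apart.

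**Figure D1:**
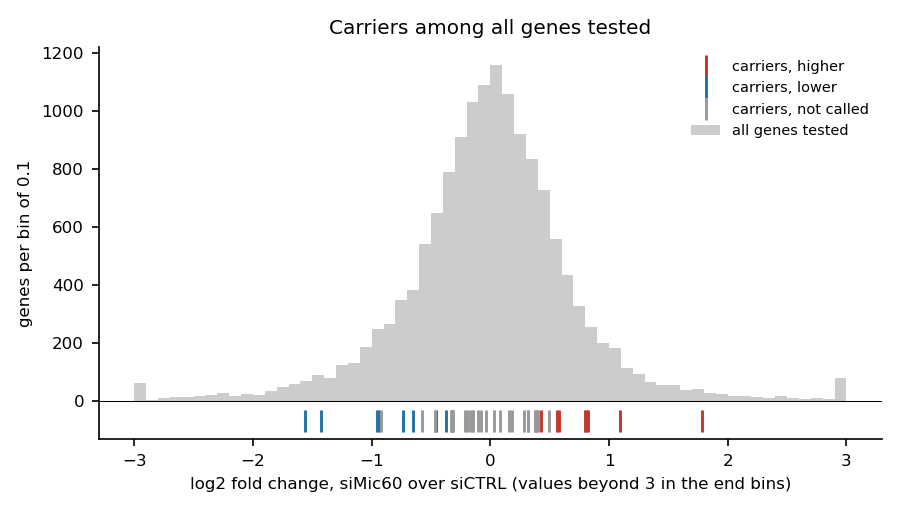
Histogram of the log2 fold change, siMic60 over siCTRL, of all 14653 genes tested (grey, bins of 0.1, values beyond 3 in the end bins), with a tick below it for each of the 43 carriers tested. The ticks of the 9 carriers called higher (red), the 9 called lower (blue) and the 25 not called (grey) spread over both sides of 0, around a median of −0.10.

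**Figure D2:**
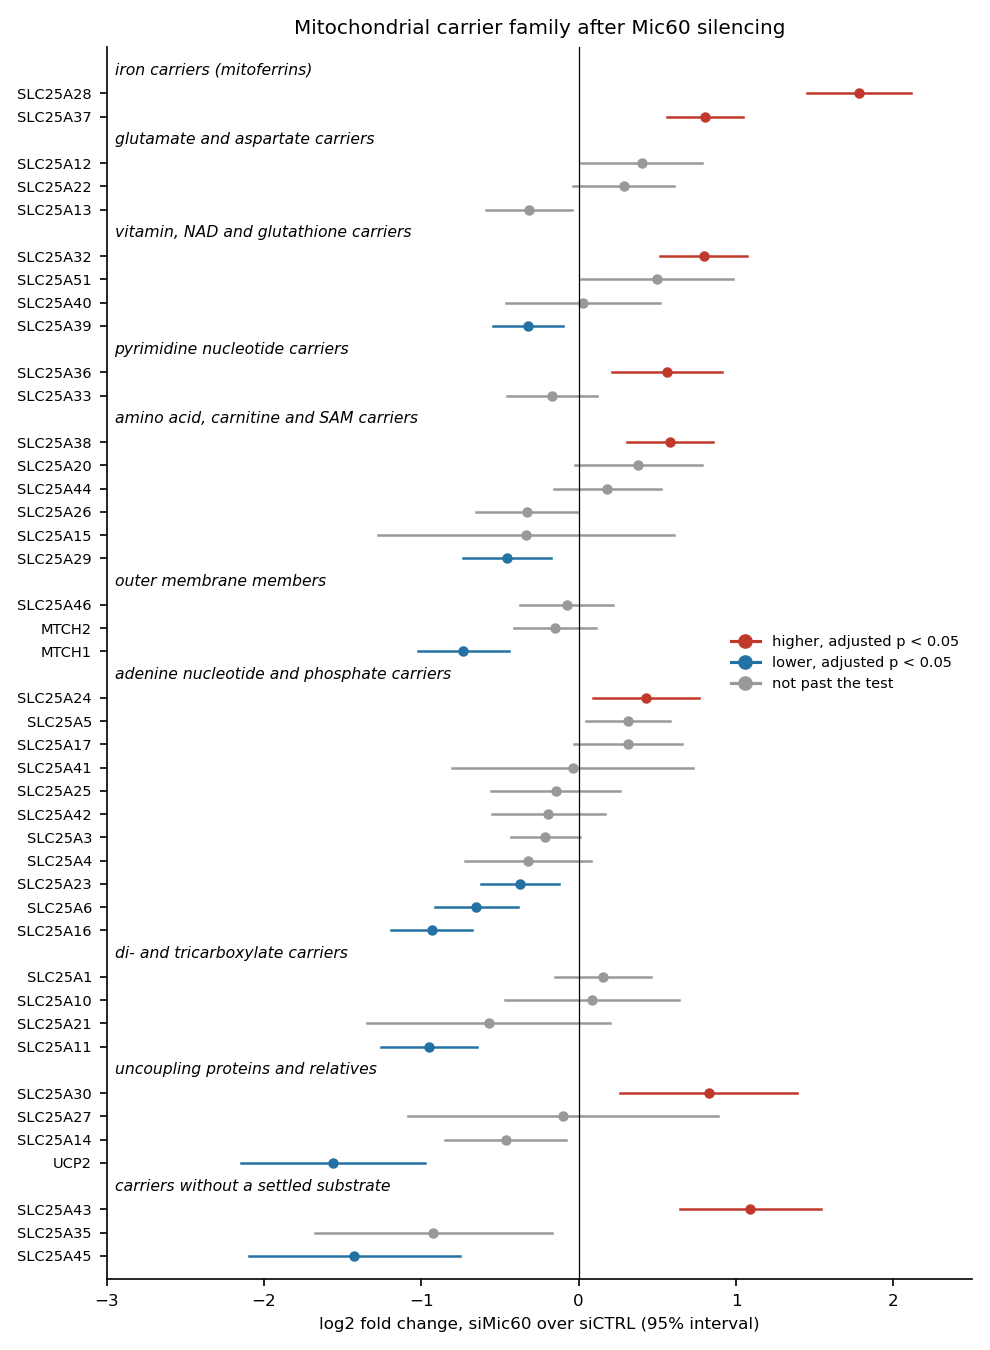
Log2 fold change with its 95% interval for 42 of the 43 carriers tested, ordered by role, with members called higher in red, lower in blue and the rest in grey. Both mitoferrins lie to the right of 0, while most other role groups hold members on either side.

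**Figure D3:**
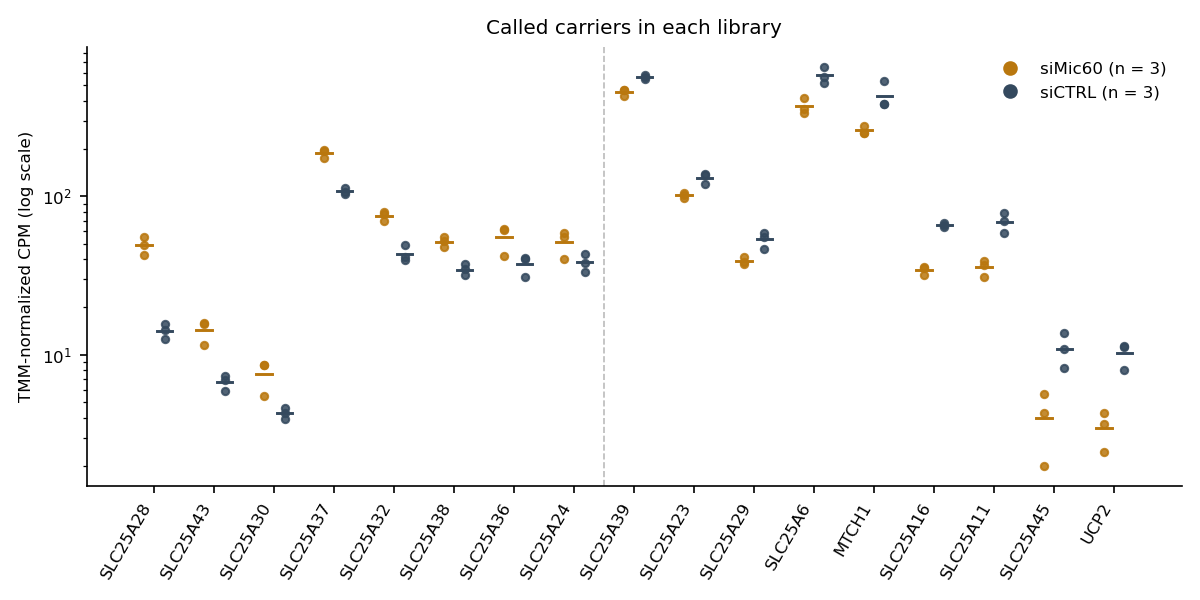
Level of 17 of the 18 called carriers in each library (TMM-normalized CPM, log axis, horizontal lines at the mean of 3 libraries), siMic60 left of siCTRL, with 8 higher members left of the dashed line and the 9 lower members right of it. Among those plotted, the groups overlap only for SLC25A24.

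Both mitoferrins rose. These carriers bring iron into the matrix for heme and iron-sulfur cluster synthesis, SLC25A37 (mitoferrin-1) being known for erythroid cells and SLC25A28 (mitoferrin-2) for being expressed widely. SLC25A28 (ENSG00000155287) had 55.7, 49.1 and 42.3 CPM in siMic60 libraries, against 15.7, 14.4 and 12.6 CPM in siCTRL libraries. Its lowest siMic60 library was above its highest siCTRL library, and it rose 3.44-fold (95% interval 2.74 to 4.31, edgeR adjusted p = 6.1e-07). SLC25A37 (ENSG00000147454) had 196, 175 and 192 CPM in siMic60 libraries, against 104, 107 and 112 CPM in siCTRL libraries. Here too the groups were apart, and the gene rose 1.74-fold (95% interval 1.48 to 2.06, edgeR adjusted p = 6.65e-05). Together the mitoferrins summed to 237 ± 14.0 CPM in siMic60 and 122 ± 2.75 CPM in siCTRL (SD, n = 3 each). SLC25A37 remained the more abundant of the pair, with SLC25A28 making up 20.7% ± 2.28 of their sum in siMic60 and 11.7% ± 1.54 in siCTRL.

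Promoter sequence was read from a RefSeq table for GRCh38.p14, another build than the GRCh37 named for the counts, and 43 of the 51 members matched it. Those without an entry include SLC25A2, SLC25A16, SLC25A30, SLC25A32, SLC25A35, SLC25A37 and SLC25A41. The window from 250 bases before to 50 bases after each start was searched on both strands for 4 words: the interferon-stimulated response element (ISRE) core, written GAAA, any 2 bases, GAAA, TGATGNAA, an ATF4 and C/EBP composite element, an NRF1 word, written GCGC, any 2 bases, GCGC, whose copies can overlap, and CACGTG, the E-box. A match describes the letters and is not a site. Among members and tested genes, a gene holds a word if any of its promoters does, whereas the share of all promoters counts each promoter. The matched members include some that were not tested. The bases upstream of 3 called members are printed because they differ in these words: SLC25A28 (largest rise), which holds none, SLC25A11 (the malate carrier, lower), which holds TGATGNAA on the opposite strand and the NRF1 word, and SLC25A38 (the glycine carrier, higher), which holds CACGTG. Matched words are in capitals, each sequence runs 5′ to 3′ and ends at the base before the start in the table, and for SLC25A28 that start lies within a longer RefSeq gene span. The windows are chr10:99620440-99620689 (minus strand), chr17:4940047-4940296 (minus strand) and chr3:39383120-39383369 (plus strand).
SLC25A28: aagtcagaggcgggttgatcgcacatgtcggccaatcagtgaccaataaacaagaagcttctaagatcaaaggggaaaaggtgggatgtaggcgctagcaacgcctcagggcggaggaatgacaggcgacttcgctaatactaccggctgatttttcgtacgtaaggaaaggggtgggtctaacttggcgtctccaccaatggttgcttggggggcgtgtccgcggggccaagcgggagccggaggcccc
SLC25A11: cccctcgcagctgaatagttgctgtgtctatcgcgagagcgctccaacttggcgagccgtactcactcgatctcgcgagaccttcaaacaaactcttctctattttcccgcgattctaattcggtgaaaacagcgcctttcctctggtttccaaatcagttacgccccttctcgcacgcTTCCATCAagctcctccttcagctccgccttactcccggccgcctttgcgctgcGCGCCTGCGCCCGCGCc
SLC25A38: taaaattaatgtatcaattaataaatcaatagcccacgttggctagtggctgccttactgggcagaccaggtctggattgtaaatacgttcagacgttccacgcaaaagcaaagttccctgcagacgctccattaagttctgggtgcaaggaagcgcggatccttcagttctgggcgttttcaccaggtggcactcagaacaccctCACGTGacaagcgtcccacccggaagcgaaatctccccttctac

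CACGTG was in 11 of the 43 matched members (25.6%), against 12.5% of tested genes and 7.26% of all 35116 promoters in the table. The holders lay in every class of call: SLC25A36 and SLC25A38 rose, MTCH1 fell, and SLC25A13, SLC25A22, SLC25A26, SLC25A33, SLC25A46, SLC25A51 and MTCH2 were not called, while SLC25A31 was not tested. The NRF1 word was in 10 members (23.3%), against 18.5% of tested genes and 8.32% of all promoters, among them SLC25A11, which fell, and SLC25A24, which rose. The other words were rare among the carriers. TGATGNAA was in SLC25A11 alone, beginning 71 bases before the start (2.33% of members, 2.70% of tested genes and 3.62% of all promoters). The ISRE core was in SLC25A22 alone, which was not called (2.33% of members, 3.89% of tested genes and 3.57% of all promoters).

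Of the 12 adenine nucleotide and phosphate carriers, 11 were tested, 1 rose, 3 fell and 7 were not called. The ADP/ATP carriers, which exchange matrix ATP for cytosolic ADP, include SLC25A4 (ANT1, the heart and muscle form), SLC25A5 (ANT2), SLC25A6 (ANT3) and the germ cell form SLC25A31, which had no count. SLC25A6 (ENSG00000169100) had 334, 418 and 353 CPM in siMic60 libraries, against 654, 520 and 561 CPM in siCTRL libraries. The groups were apart, and it fell to 0.637 of the siCTRL level (95% interval 0.53 to 0.765, edgeR adjusted p = 0.000903). SLC25A5 had 348, 399 and 378 CPM in siMic60 libraries, against 251, 321 and 332 CPM in siCTRL libraries. The groups were apart, siMic60 above, but SLC25A5 did not pass the test (log2 fold change 0.32, SE 0.13, edgeR adjusted p = 0.0627). It passed with DESeq2 and with no minimum count. SLC25A4 had 13.5, 22.9 and 22.6 CPM in siMic60 libraries, against 23.1, 26.9 and 24.2 CPM in siCTRL libraries, and was not called (log2 fold change −0.32, edgeR adjusted p = 0.203).

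Among the ADP/ATP carrier transcripts of these libraries, the shares of SLC25A6 and of SLC25A5 did not overlap between the groups. No test was run on shares or sums. The 3 expressed forms summed to 763 ± 73.0 CPM in siMic60 and 905 ± 32.3 CPM in siCTRL. SLC25A6 was 48.1%, 49.8% and 46.8% of that sum in siMic60 libraries, against 70.5%, 59.9% and 61.2% in siCTRL libraries. SLC25A5 was 49.98%, 47.5% and 50.2% in siMic60 libraries, against 27.0%, 37.0% and 36.2% in siCTRL libraries. SLC25A5 and SLC25A6 thus stood at nearly the same level in every siMic60 library, while SLC25A6 was the more abundant in every siCTRL library.

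**Figure D4:**
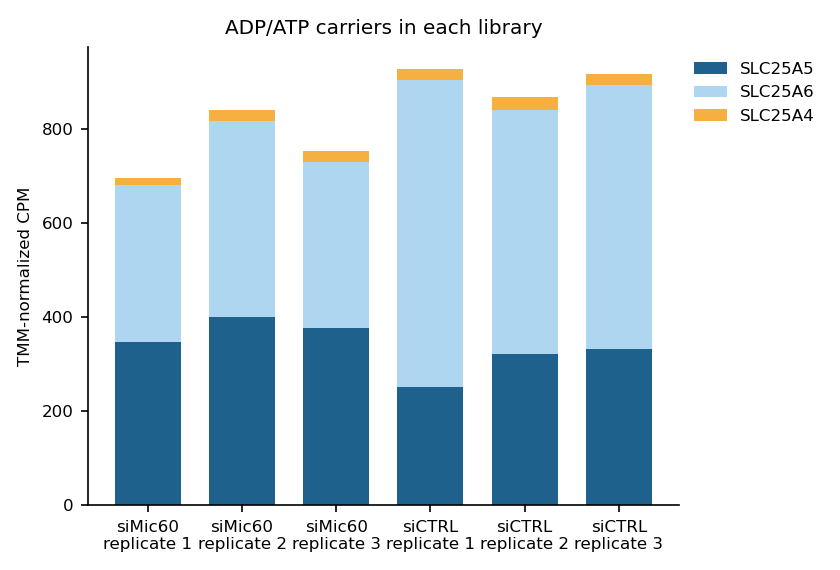
Stacked TMM-normalized CPM of SLC25A5, SLC25A6 and SLC25A4 in each library, siMic60 left and siCTRL right, from 0. SLC25A6 is 46.8% to 49.8% of the stack in siMic60 libraries and 59.9% to 70.5% in siCTRL libraries.

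The ATP-Mg/phosphate carriers, which load the matrix with adenine nucleotides and are regulated by calcium in most forms, did not move together. SLC25A23 (ENSG00000125648) had 105, 97.3 and 101 CPM in siMic60 libraries, against 139, 119 and 135 CPM in siCTRL libraries, and fell to 0.773 of the siCTRL level (edgeR adjusted p = 0.0214). The call was lost without siMic60 replicate 2 (adjusted p = 0.0657), siMic60 replicate 3 (0.0516) or siCTRL replicate 3 (0.0689). SLC25A24 (ENSG00000085491) had 55.5, 40.1 and 58.5 CPM in siMic60 libraries, against 33.2, 38.1 and 43.3 CPM in siCTRL libraries. It is the called member whose groups overlapped, siMic60 replicate 2 lying below siCTRL replicate 3, and its 1.34-fold rise (edgeR adjusted p = 0.0472) was lost without siMic60 replicate 1 (0.13), siMic60 replicate 3 (0.187), siCTRL replicate 1 (0.133) or siCTRL replicate 2 (0.11), with limma-trend (0.0575) and with library totals (0.0954). SLC25A25 and SLC25A41 were not called, at log2 fold changes of −0.15 and −0.039.

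SLC25A16, a carrier linked to coenzyme A, was among the clearest falls. It (ENSG00000122912) had 35.9, 31.7 and 35.3 CPM in siMic60 libraries, against 65.4, 63.5 and 67.4 CPM in siCTRL libraries, a change to 0.523 of the siCTRL level (95% interval 0.437 to 0.626, edgeR adjusted p = 3.38e-05). The spread within each group was small beside the gap between them. SLC25A42, a coenzyme A carrier, was at 14.7 ± 0.884 CPM in siMic60 and 16.8 ± 2.02 CPM in siCTRL and was not called. SLC25A17, the peroxisomal member, was at 24.4 ± 4.23 CPM in siMic60 and 19.7 ± 1.37 CPM in siCTRL and was not called either. SLC25A3, which imports the phosphate for ATP synthesis, had 311, 333 and 320 CPM in siMic60 libraries, against 362, 372 and 381 CPM in siCTRL libraries, without overlap but short of the threshold (log2 fold change −0.21, SE 0.10, edgeR adjusted p = 0.129).

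Among the 4 di- and tricarboxylate carriers, only SLC25A11 passed the test. This carrier exchanges 2-oxoglutarate for malate in the malate-aspartate shuttle, which moves reducing equivalents into the matrix. SLC25A11 (ENSG00000108528) had 36.8, 39.3 and 30.9 CPM in siMic60 libraries, against 78.1, 58.7 and 69.8 CPM in siCTRL libraries. The groups were apart, and it fell to 0.517 of the siCTRL level (95% interval 0.419 to 0.639, edgeR adjusted p = 0.000125). SLC25A1, the citrate carrier, had 37.6, 32.2 and 38.4 CPM in siMic60 libraries, against 30.1, 29.6 and 37.4 CPM in siCTRL libraries, with overlap (log2 fold change 0.16, edgeR adjusted p = 0.429). SLC25A10, the dicarboxylate carrier, and SLC25A21, the oxodicarboxylate carrier, also overlapped, at log2 fold changes of 0.082 and −0.57.

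The other carriers of the malate-aspartate shuttle are the aspartate/glutamate carriers SLC25A12 (aralar) and SLC25A13 (citrin). None of the 3 tested glutamate and aspartate carriers passed the test. SLC25A13, the most abundant, had 62.4, 70.4 and 53.5 CPM in siMic60 libraries, against 76.9, 81.4 and 73.7 CPM in siCTRL libraries, without overlap (log2 fold change −0.32, SE 0.13, edgeR adjusted p = 0.0665). It passed with library totals, a minimum of 50 counts and without siMic60 replicate 2 (edgeR adjusted p = 0.0326, 0.0447 and 0.0371). SLC25A12 had 14.4, 19.1 and 21.3 CPM in siMic60 libraries, against 14.5, 13.1 and 14.1 CPM in siCTRL libraries, siMic60 replicate 1 lying within the siCTRL range (log2 fold change 0.40, SE 0.18, edgeR adjusted p = 0.0964). It passed only without siMic60 replicate 1 (edgeR adjusted p = 0.0314). The 2 point estimates thus had opposite signs. SLC25A22, a glutamate carrier, was at 33.3 ± 3.98 CPM in siMic60 and 27.3 ± 3.79 CPM in siCTRL.

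Of the 7 amino acid, carnitine and S-adenosylmethionine carriers, 6 were tested, 1 rose and 1 fell. SLC25A38 imports glycine, the starting substrate of heme synthesis. SLC25A38 (ENSG00000144659) had 55.0, 52.1 and 47.8 CPM in siMic60 libraries, against 37.2, 34.5 and 31.8 CPM in siCTRL libraries, and rose 1.5-fold without overlap (95% interval 1.24 to 1.81, edgeR adjusted p = 0.00248). SLC25A29 (ENSG00000197119), a carrier of basic amino acids, had 37.1, 38.4 and 41.6 CPM in siMic60 libraries, against 55.1, 46.8 and 59.0 CPM in siCTRL libraries. It fell to 0.729 of the siCTRL level (edgeR adjusted p = 0.0136), a call lost without siMic60 replicate 1 (adjusted p = 0.0533) or siCTRL replicate 3 (0.0655). SLC25A44, which imports branched-chain amino acids, had 50.1, 79.4 and 53.8 CPM in siMic60 libraries, against 57.2, 51.5 and 53.4 CPM in siCTRL libraries. Only siMic60 replicate 2 stood above the siCTRL range, and the log2 fold change of 0.18 (edgeR adjusted p = 0.41) became −0.042 without that library. SLC25A15, SLC25A20 and SLC25A26, the ornithine, carnitine/acylcarnitine and S-adenosylmethionine carriers, were not called, at log2 fold changes of −0.34, 0.38 and −0.33.

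Cofactor carriers included SLC25A39, the most abundant member by the mean of all libraries, and moved in both directions, 2 of the 5 tested rising and 1 falling. SLC25A32 (ENSG00000164933), which brings folate into the matrix, had 79.3, 70.0 and 77.0 CPM in siMic60 libraries, against 41.5, 39.4 and 49.6 CPM in siCTRL libraries. The groups were apart, and it rose 1.73-fold (95% interval 1.43 to 2.1, edgeR adjusted p = 0.000236). SLC25A51, the NAD carrier, was not called at 10.5 ± 2.11 CPM in siMic60 and 7.5 ± 1.26 CPM in siCTRL (log2 fold change 0.50, edgeR adjusted p = 0.102).

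SLC25A39 and SLC25A40 import glutathione. SLC25A39 (ENSG00000013306) had 467, 466 and 428 CPM in siMic60 libraries, against 582, 550 and 568 CPM in siCTRL libraries. The groups were apart and it fell to 0.8 of the siCTRL level (95% interval 0.687 to 0.932, edgeR adjusted p = 0.0246), a call lost without siMic60 replicate 1 (adjusted p = 0.0508), siMic60 replicate 3 (0.0891), siCTRL replicate 2 (0.0533) or siCTRL replicate 3 (0.0686). SLC25A40 was far less abundant, at 7.68 ± 1.08 CPM in siMic60 and 7.54 ± 1.2 CPM in siCTRL, and was not called.

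Of the 2 pyrimidine nucleotide carriers, which supply the matrix with precursors for mitochondrial DNA and RNA, SLC25A36 rose and SLC25A33 was not called. SLC25A36 (ENSG00000114120) had 61.6, 42.2 and 61.8 CPM in siMic60 libraries, against 31.0, 40.3 and 40.9 CPM in siCTRL libraries. The lowest siMic60 library was just above the highest siCTRL library, and the 1.47-fold rise (95% interval 1.16 to 1.88, edgeR adjusted p = 0.0152) was lost without siMic60 replicate 1 (adjusted p = 0.0615), siMic60 replicate 3 (0.074) or siCTRL replicate 1 (0.0519). SLC25A33 had 28.2, 28.5 and 25.7 CPM in siMic60 libraries, against 31.2, 33.0 and 28.5 CPM in siCTRL libraries (log2 fold change −0.17, edgeR adjusted p = 0.358).

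The uncoupling proteins and their relatives held the largest fall of the family. UCP2 exports C4 metabolites such as aspartate from the matrix and can raise proton leak. UCP2 (ENSG00000175567) had 3.68, 4.28 and 2.42 CPM in siMic60 libraries, against 11.3, 8 and 11.3 CPM in siCTRL libraries, and fell to 0.338 of the siCTRL level without overlap (95% interval 0.226 to 0.507, edgeR adjusted p = 0.000465). SLC25A30 (ENSG00000174032) had 5.52, 8.57 and 8.65 CPM in siMic60 libraries, against 3.96, 4.63 and 4.31 CPM in siCTRL libraries, a 1.77-fold rise (95% interval 1.2 to 2.62, edgeR adjusted p = 0.0239). The groups were apart, but that call was lost without siMic60 replicate 2, siMic60 replicate 3 or any siCTRL library, at adjusted p of 0.052 to 0.0888. SLC25A14, the most abundant of the group, had 26.7, 27.2 and 16.3 CPM in siMic60 libraries, against 35, 29.9 and 31.4 CPM in siCTRL libraries. Its groups were apart, siMic60 below, but it missed the threshold (log2 fold change −0.46, SE 0.18, edgeR adjusted p = 0.0589). It passed with library totals (edgeR adjusted p = 0.035), no minimum count (0.0277) and a minimum of 50 counts (0.0455). It also passed with a replicate block (0.0469) and without siMic60 replicate 2 (0.0455). SLC25A27 stood at 1.63 ± 0.902 CPM in siMic60 and 1.80 ± 0.258 CPM in siCTRL, and was not called.

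In the outer membrane, MTCH2 acts as an insertase for tail-anchored and other helical proteins, MTCH1 is its close relative, and SLC25A46 is linked to mitochondrial fission and fusion. MTCH1 (ENSG00000137409) had 252, 277 and 251 CPM in siMic60 libraries, against 532, 384 and 380 CPM in siCTRL libraries. It fell to 0.602 of the siCTRL level (95% interval 0.493 to 0.735, edgeR adjusted p = 0.000713), with siCTRL replicate 1 the highest. The log2 fold change was −0.73, and −0.82 to −0.56 over all alternatives, those without that library included. MTCH2 had 190, 230 and 183 CPM in siMic60 libraries, against 232, 206 and 231 CPM in siCTRL libraries, with overlap (log2 fold change −0.15, edgeR adjusted p = 0.364). SLC25A46 was not called, at 25.4 ± 0.435 CPM in siMic60 and 26.8 ± 2.19 CPM in siCTRL.

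Carriers without a settled substrate included changes of over 2-fold in each direction. SLC25A43 (ENSG00000077713) had 15.8, 11.5 and 15.7 CPM in siMic60 libraries, against 5.87, 6.88 and 7.40 CPM in siCTRL libraries, and rose 2.13-fold (95% interval 1.56 to 2.9, edgeR adjusted p = 0.000976). SLC25A45 (ENSG00000162241) had 1.99, 4.28 and 5.65 CPM in siMic60 libraries, against 13.7, 8.25 and 10.8 CPM in siCTRL libraries, and fell to 0.372 of the siCTRL level (95% interval 0.234 to 0.592, edgeR adjusted p = 0.00252). Neither gene's groups overlapped. SLC25A35 had 1.84, 1.96 and 1.61 CPM in siMic60 libraries, against 4.08, 3.5 and 2.71 CPM in siCTRL libraries, and was just outside the threshold (log2 fold change −0.92, SE 0.35, edgeR adjusted p = 0.0542). It passed only with library totals (edgeR adjusted p = 0.0405).

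The 8 members that were not tested were at or near the floor. SLC25A2, SLC25A31, SLC25A47 and SLC25A48 had no count in any library, which allows up to 0.126 CPM over the siMic60 group and 0.125 CPM over the siCTRL group for counting error alone. SLC25A52 had 1, 0 and 0 counts in siMic60 libraries and 0, 0 and 2 in siCTRL libraries. SLC25A34 had 0, 7 and 6 counts in siMic60 libraries and 1, 1 and 0 in siCTRL libraries. These counts are too few to order the groups. UCP3 had 3, 7 and 8 counts in siMic60 libraries and 4, 6 and 8 in siCTRL libraries, and SLC25A18, a glutamate carrier, had 9, 12 and 9 counts in siMic60 libraries and 4, 8 and 6 in siCTRL libraries.

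Several carriers have a close relative with the same or a similar substrate, and the balance within 9 such pairs was compared as the log2 ratio of CPM + 0.5 in each library. Of 13 pairs fixed, these 9 had both genes past the filter on low counts. In 7 of the 9 the groups did not overlap, each at the smallest p that 3 libraries against 3 allow (two-sided exact permutation p = 0.1, 0.129 after adjustment over the 9), so none can pass 0.05. Of all single genes tested, 47.9% had groups without overlap, and no such share was computed for ratios of other genes. SLC25A6/SLC25A5 was −0.029 ± 0.085 in siMic60 and 0.94 ± 0.38 in siCTRL, a difference of −0.97. SLC25A28/SLC25A37 was −1.93 ± 0.20 in siMic60 and −2.88 ± 0.21 in siCTRL, a difference of 0.95. The differences in these pairs were of about the same size, with both mitoferrins called higher, and with SLC25A6 called lower and SLC25A5 not called. The differences were 0.69 for SLC25A12/SLC25A13, −0.71 for SLC25A33/SLC25A36, −0.68 for SLC25A4/SLC25A5, −0.78 for SLC25A23/SLC25A24 and −0.56 for MTCH1/MTCH2. SLC25A24/SLC25A25 and SLC25A39/SLC25A40 overlapped, at differences of 0.54 and −0.35 (two-sided exact permutation p = 0.2 each). Pairs that share a gene are not independent.

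**Figure D5:**
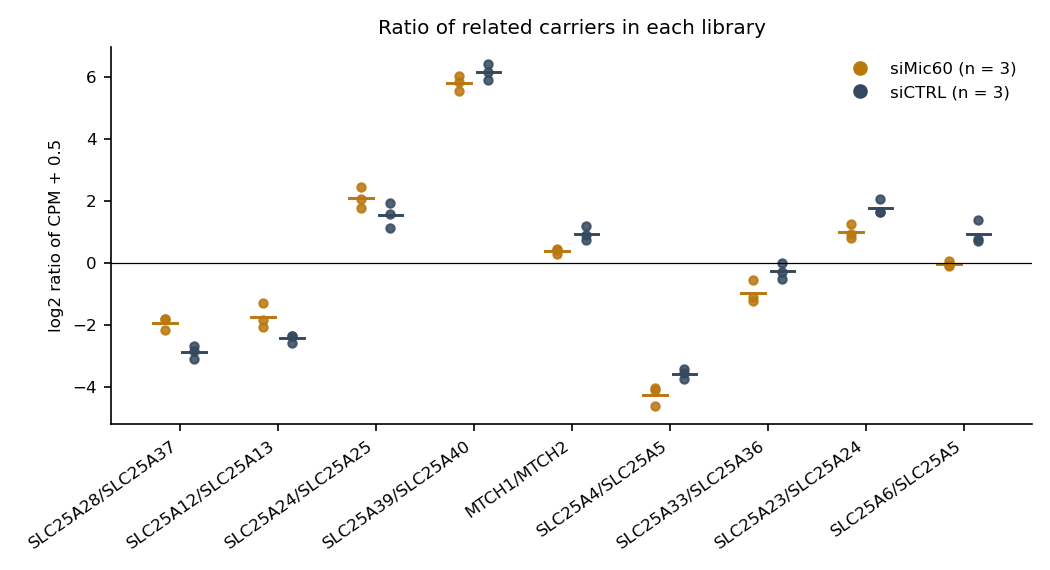
Log2 ratio of CPM + 0.5 within 9 pairs of related carriers in each library, siMic60 left of siCTRL, with horizontal lines at the mean of 3 libraries. The groups are apart in 7 pairs and overlap for SLC25A24/SLC25A25 and SLC25A39/SLC25A40.

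Inner membrane transporters outside the family also changed in both directions. Of 16 tested, 2 rose, 4 fell and 10 were not called, with a median log2 fold change of 0.18, against 0.0022 over all genes. Of all genes tested, 17.7% rose and 17.9% fell, and the counts in this small list were not tested against those shares. The serine transporter SFXN1 was at 66.8 ± 11.7 CPM in siMic60 and 27.9 ± 3.55 CPM in siCTRL (log2 fold change 1.26, edgeR adjusted p = 2e-05), and its relative SFXN2 at 4.49 ± 0.412 CPM in siMic60 and 1.23 ± 0.466 CPM in siCTRL (1.86, 0.00149). SFXN3 fell, at 35.9 ± 1.78 CPM in siMic60 and 64.7 ± 4.69 CPM in siCTRL (−0.85, 9.22e-05). Among the others that fell were MPC2, a subunit of the pyruvate carrier (log2 fold change −0.66), and MCU, the pore of the calcium uniporter (−0.58).

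Of 15 tested genes of the import route that delivers carriers to the inner membrane, 4 rose, 1 fell and 10 were not called, with a median log2 fold change of 0.082. Here too the counts stand beside 17.7% of all genes tested that rose and 17.9% that fell, without a test against those shares. TIMM22, the core of the carrier translocase, was at 41.5 ± 4.68 CPM in siMic60 and 24.2 ± 1.25 CPM in siCTRL (log2 fold change 0.78, edgeR adjusted p = 0.000508). TIMM9, a chaperone of the intermembrane space, and TOMM40, the outer membrane channel, also rose, at log2 fold changes of 0.49 and 0.47 (edgeR adjusted p = 0.00384 and 0.0406). The groups overlapped for TOMM40, siMic60 replicate 3 (58.3 CPM) lying below siCTRL replicate 3 (58.9 CPM). TIMM8B, another small chaperone, fell, at 126 ± 20.1 CPM in siMic60 and 252 ± 34.8 CPM in siCTRL (−1.0, 6.52e-05).

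Of 20 tested enzymes that use the carried substrates, 3 rose, 6 fell and 11 were not called, with a median log2 fold change of −0.079. The shares over all genes tested were 17.7% higher and 17.9% lower, and the list was not tested against them. SHMT2, the matrix enzyme of folate-dependent serine and glycine exchange, and GLUD1, glutamate dehydrogenase, were among those that rose, by 0.78 and 0.76 on the log2 scale. CPT1A, which makes the acylcarnitines that SLC25A20 imports, fell, at 111 ± 8.61 CPM in siMic60 and 209 ± 32.4 CPM in siCTRL (−0.91, 8.8e-05). ARG2, the mitochondrial arginase, and ACLY, which splits exported citrate, also fell, at log2 fold changes of −1.53 and −0.61. ALAS1, which joins glycine to succinyl-CoA in heme synthesis, was among the lower genes at 47.9 ± 6.27 CPM in siMic60 and 64.6 ± 5.36 CPM in siCTRL, as was NFS1, the sulfur donor of iron-sulfur clusters, at 42.1 ± 6.57 CPM in siMic60 and 60.6 ± 6.45 CPM in siCTRL. These 2 were named for their link to glycine and iron after their values were seen. FECH, of heme synthesis, and ISCU, of iron-sulfur cluster synthesis, were not called (log2 fold change −0.12 and 0.028, edgeR adjusted p = 0.501 and 0.89). The heme and iron-sulfur genes of the list were thus not all lower.

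Reads of near-identical copies can be shared, and how the authors' counting treated them is not given in the sources used here. Of 42 SLC25 pseudogenes in the table, 40 had no count. SLC25A51P4 was the exception with counts to test, 26, 34 and 18 in siMic60 libraries, against 70, 72 and 68 in siCTRL libraries (log2 fold change −1.34, edgeR adjusted p = 0.00194), while SLC25A51 itself was not called. Antisense genes overlap several members and cannot be told apart from them without a strand setting, which is not given either. SLC25A5-AS1 had 5, 8 and 8 counts in siMic60 libraries, against 27, 13 and 21 in siCTRL libraries (log2 fold change −1.46, edgeR adjusted p = 0.0179). SLC25A21-AS1 had 23, 29 and 30 counts in siMic60 libraries, against 63, 53 and 44 in siCTRL libraries (log2 fold change −0.89, edgeR adjusted p = 0.0174). SLC25A25-AS1 had 26, 27 and 52 counts in siMic60 libraries, against 71, 40 and 38 in siCTRL libraries, with overlap, and was not called (log2 fold change −0.45, edgeR adjusted p = 0.301). Of these 3 antisense genes 2 were thus lower, while SLC25A5, SLC25A21 and SLC25A25 were not called.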

How the data were processed

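The authors deposited gene counts from QuantSeq 3′ mRNA libraries of PC3 cells, 1 column per library, as whole numbers with no normalization. Among the tools and builds in the submitters' processing notes are RSEM (1.2.3), DESeq2 and hg19 (GRCh37), without a stated role, so these counts may be rounded estimates. For the aligner, annotation and strand setting, the sources used here give nothing. Symbols were matched for 52301 of 57736 rows and 14159 of 14653 tested genes.

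Differential expression was tested with edgeR 4.0.16 in R 4.3.3 (TMM, at least 10 counts in 3 of 6 libraries, quasi-likelihood test, Benjamini-Hochberg over all genes tested, threshold 0.05), after the step was tested on simulated data. Intervals of 95% were built on the log2 scale from the standard errors. Libraries of a group differed by more than sampling noise (chi-square per degree of freedom 3.54 to 13.5) and were correlated at 0.974 to 0.985 on log2 CPM, against 0.909 to 0.943 between groups. Alternatives were DESeq2 1.42.0, limma-trend (limma 3.58.1) with a prior count of 2, DESeq2 size factors or library totals, omission of the count filter, a filter at 50 counts, omission of each library in turn, and a block for replicate number. Ratios of relatives used a pseudocount of 0.5 CPM, with 0.1 and 2 as alternatives, and scipy 1.17.1.

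Values per library are given for called members with a mean of at least 5 CPM, the most abundant member of each role group and their relatives in the pairs, and of other lists the called genes with the largest changes, up to 3 in each direction. SLC25A1, SLC25A3 and SLC25A35 were added after their values were seen. The members and lists were chosen with earlier results of these data known. Some genes, 1 called member among them, are not reported here by name or value but stay in the counts. Carrier protein sequences were not used here.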

Additional observations from a re-analysis of the deposited data

How the results depend on the processing

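Of the 18 called members, all kept their sign in every alternative run for them (13, or 12 for SLC25A30, which the minimum of 50 counts left out), and 11 kept their call in all 13: SLC25A28, SLC25A37, SLC25A32, SLC25A38 and SLC25A43 higher, and SLC25A11, SLC25A16, SLC25A45, SLC25A6, MTCH1 and UCP2 lower. Leaving out a library gave 5 to 7 members higher, 6 to 10 lower and 4148 to 4633 genes changed, against 5204 genes with all libraries. These fits used fewer libraries, and the reason for the differences was not tested. The other alternatives gave 7 to 9 members higher, 9 to 12 lower and 4667 to 5564 genes changed. IMMT kept its call throughout.

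Replicate numbers did not mark pairs (same-number correlations of deviations −0.10, −0.03 and 0.03). With the replicate block, 7 members were higher, 9 lower and 4766 genes changed. SLC25A24 (adjusted p = 0.0515) and SLC25A39 (0.0508) were among those not called with the block, and SLC25A14 was (0.0469).

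The log2 fold changes that turned sign were all of uncalled members: SLC25A10 ranged from −0.085 to 0.37 over left-out libraries, SLC25A27 from −0.40 to 0.26, SLC25A40 from −0.084 to 0.14 (−0.029 with library totals), SLC25A41 from −0.24 to 0.28 and SLC25A44 from −0.042 to 0.31. No ratio of relatives turned sign. For members under 5 CPM, depth limits the fold: the 95% interval of SLC25A27 ran from 0.471 to 1.84.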
